A study of Mus musculus with 6 samples.

Results

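The genes described here are 9 components of the route from noradrenaline at the cell surface to cyclic AMP and back: the receptor Adrb1, the stimulatory G protein α subunit Gnas, the adenylyl cyclase Adcy7, the protein kinase A catalytic subunit Prkaca, the phosphodiesterases Pde4b and Pde4d, the receptor kinase Grk2 and the arrestins Arrb1 and Arrb2. They were taken by symbol from the gene lists of the 6 libraries, which hold 29492 genes each, and all 9 were found. The symbols were not selected by a measured value, but earlier results of these data were known when they were chosen. Each gene is reported as UMI counts (unique molecular identifiers, 1 per captured RNA molecule) per 1000000 UMIs of a cell type in a library, written CPM.

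The study profiled single cells of whole lungs with BD Rhapsody, a microwell method. The lungs came from male C57BL/6J mice aged 12 weeks and were collected on day 3. One group, called SLC+LPS here, received lipopolysaccharide (LPS, a bacterial cell wall component that inflames the lung) at 1 mg/kg together with 7 activations of the SLC, which the labels write as SLC-Gq and the series title names as the subcoeruleus nucleus, in connection with sympathetic nerves. A second group received LPS at 1 mg/kg, and the control group received phosphate-buffered saline. Each group had 2 mice, 1 library per mouse. The sources used here do not say how the Gq signal was delivered, which promoter or cells carry it or when the activations took place. A library with SLC activation alone was not analysed here, so SLC activation is read on top of LPS only. The smallest two-sided p that an exact permutation test can give for 2 libraries against 2 is 0.333, so all tests below come from models fitted across all genes.

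Noradrenaline released from sympathetic nerve endings binds β-adrenergic receptors, which activate the stimulatory G protein; its α subunit turns on adenylyl cyclase, and the cyclic AMP formed activates protein kinase A. Phosphodiesterases of the PDE4 family break cyclic AMP down. GRK2 phosphorylates receptors that have bound agonist, and arrestins then bind them, uncouple them from the G protein and carry them inwards. In immune cells of the lung, cyclic AMP is known to restrain the release of inflammatory mediators, and protein kinase A phosphorylates CREB, a factor that binds cyclic AMP response elements in promoters.

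With the main settings, Adrb1 was the one member whose level differed past the threshold between groups, and its promoter is shown for that reason. The 250 bases before the annotated start of Adrb1, from RefSeq on build GRCm38.p6 (chr19:56721867-56722116, plus strand), read 5′ to 3′ as follows, with capitals marking TGACG, the short form of the cyclic AMP response element.
Adrb1 promoter: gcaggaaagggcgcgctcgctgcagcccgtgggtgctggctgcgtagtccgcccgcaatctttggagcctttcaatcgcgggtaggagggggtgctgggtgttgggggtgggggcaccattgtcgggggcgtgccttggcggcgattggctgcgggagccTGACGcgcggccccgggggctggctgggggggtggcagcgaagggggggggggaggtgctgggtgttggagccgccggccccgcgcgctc
The short form lay 90 bases before the start. The full element TGACGTCA was not in this window. Both strands were searched, and the full element contains the short form. Among the 32851 RefSeq promoter windows of the same length, from 27025 genes, 17.8% held the short form and 1.55% the full element. The window was 74% G and C, against a median of 52.4% over all windows. Promoter entries were found for 6 of the 9 members, all but Grk2, Arrb1 and Arrb2; of their 15 windows, 7 held the short form and 0 the full element.

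The libraries held 11360 to 13650 cells after filtering, with median depths of 1134 to 2578 UMIs per cell. Cells were assigned to 14 types by 5 to 8 marker genes per type, so that every cell type named here means cells like that type by those markers. Neutrophils made up 56.2% and 49.6% of cells in SLC+LPS, 49.1% and 39.7% in LPS, and 17.1% and 13.8% in control lungs. Tests ran on UMI sums per library for all cells and for 10 types; nonclassical monocytes, dendritic cells, mural cells and club cells had under 20 cells in some library and are given as values. LPS replicate 2 stood apart: RNA free in the cartridge, estimated from surfactant and club cell genes, supplied 7.17% of its neutrophil UMIs, against 29.8% to 46.2% in the other 5 libraries, and it was the deepest library. Cell barcodes shared by pairs of libraries numbered 0 to 6.

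Adrb1 is a β-adrenergic receptor that noradrenaline activates. In control lungs its RNA was highest in endothelial cells, at 272 ± 44.5 CPM (SD, n = 2), followed by nonclassical monocytes at 231 ± 12.3 CPM; the difference between these cell types was smaller than the SD of the first. Alveolar macrophages followed at 107 ± 13.8 CPM, under both and apart from them. Club cells averaged 46.6 ± 30.5 CPM and alveolar type 2 cells 40.1 ± 3.2 CPM, whose ranges overlapped. All other types were under 20 CPM on average, among them C1q macrophages at 18.8 ± 6.7 CPM and B cells at 2.73 ± 2.13 CPM.

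Free RNA bears on most of these low levels. Where an observed level lies under the level expected from free RNA, the estimate is too high for that gene. Such values are read as background here with that limit. They cannot be told apart from free RNA, and are not shown to be free RNA alone. In control replicate 1 the Adrb1 level expected from free RNA was 21.4 CPM in endothelial cells and 21.9 CPM in alveolar macrophages, and in control replicate 2 it was 16.2 and 16.1 CPM. Of the 12 types with an estimate, 4 were above it in both control libraries: endothelial cells, nonclassical monocytes, alveolar macrophages and T cells. T cells were above it by little, at 18.2 against 17.8 CPM expected in replicate 1 and 16 against 12.9 CPM in replicate 2. In neutrophils Adrb1 lay under the expected level in both controls, at 11.7 against 22.8 CPM and at 12.6 against 15.5 CPM, so these neutrophil values are read as background.

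**Figure D1:**
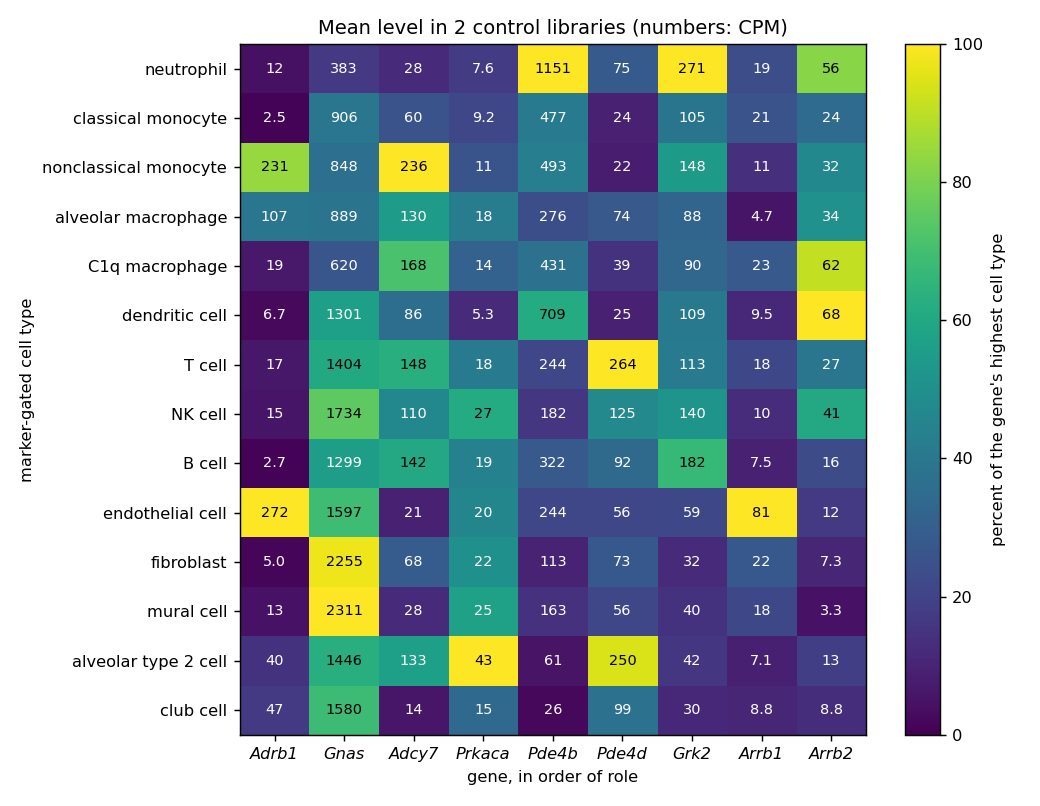
Mean CPM in the 2 control libraries for each of the 9 members (columns) in each marker-assigned cell type (rows); the color gives the percent of the gene's highest cell type. Adrb1 peaks in endothelial cells at 272 CPM, Pde4b in neutrophils at 1151 CPM and Gnas in mural cells at 2311 CPM.

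The share of cells with at least 1 Adrb1 UMI, taken without regard to depth, ordered these types otherwise than CPM did. In control lungs it averaged 34.6% in alveolar macrophages, 32.3% in nonclassical monocytes and 30.1% in endothelial cells. In endothelial cells it was 30% (exact binomial 95% interval 24.6% to 36.0%) and 30.7% in SLC+LPS, 51.7% and 14.2% in LPS, and 34.8% and 25.4% in control lungs. Alveolar macrophages had 16.5% and 13% in SLC+LPS, 13% and 6.86% in LPS, and 33.1% (29.7% to 36.7%) and 36.0% (32.8% to 39.3%) in control lungs. B cells, which were near 0 for Adrb1, had 0.481% and 0.138% in control lungs at median depths of 1220 and 1001 UMIs, close to the endothelial depths of 1343 and 1136 UMIs. The intervals cover counting error only.

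Alveolar macrophages were deeper cells, with median depths of 12724 and 10748 UMIs in SLC+LPS, 10523 and 12156 in LPS, and 5280 and 4315 in control lungs. After thinning each cell to 500 UMIs, 1.35% and 0% of alveolar macrophages kept an Adrb1 UMI in SLC+LPS, 1.45% and 0.557% in LPS, and 4.16% and 5.08% in control lungs. The control libraries stayed above the other 4, although 1 cell is 1.45% of the 69 cells in SLC+LPS replicate 2 and in LPS replicate 1. Thinned endothelial shares were 11.8% and 17.3% in SLC+LPS, 19.5% and 3.99% in LPS, and 17.1% and 13.3% in control lungs, with overlap between the groups.

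Adrb1 was lower in alveolar macrophages of both LPS-treated groups than in control lungs. It stood at 18.0 and 18.4 CPM in SLC+LPS, 22.7 and 6.71 CPM in LPS, and 97.1 and 117 CPM in control lungs. The treated and control libraries did not overlap, and each treated value was above the level expected from free RNA, which was 2.42 and 4.14 CPM in SLC+LPS and 3.67 and 0.73 CPM in LPS. In edgeR's quasi-likelihood test, with Benjamini-Hochberg adjustment over all genes of the cell type, the log2 change was -2.40 (SE 0.467, adjusted p = 0.0354) in SLC+LPS against control and -2.95 (SE 0.493, adjusted p = 0.0219) in LPS against control. The fitted changes use TMM scaling, which moved log2 changes from those of plain CPM by -0.15 to 0.38 over the units of SLC+LPS against control and by -0.00427 to 0.38 over those of LPS against control, most in the sums over all cells. Both comparisons share the control libraries. Of all genes tested in alveolar macrophages, 1.52% were called lower in SLC+LPS and 1.99% in LPS.

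The calls rest on the control libraries: without either one, the adjusted p in alveolar macrophages was 0.115 and 0.169 for SLC+LPS and 0.0597 and 0.0874 for LPS, with the same direction. Without SLC+LPS replicate 1 or 2 the adjusted p was 0.257 and 0.19 for SLC+LPS and 0.0507 and 0.0501 for LPS. After the counts expected from free RNA were subtracted, the log2 change was -2.69 (adjusted p = 0.245) in SLC+LPS and -3.20 (adjusted p = 0.216) in LPS, as large but not past the threshold.

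Other markers moved with this result. The summed alveolar macrophage markers in these cells stood at 4418 and 5208 CPM in SLC+LPS, 4361 and 12265 CPM in LPS, and 10376 and 11001 CPM in control lungs. LPS replicate 2 was thus at the control level for them, with the lowest Adrb1 of the 6 libraries. Classical monocyte markers in the same cells were at 447 and 653 CPM in SLC+LPS, 394 and 124 CPM in LPS, and 28.5 and 42.2 CPM in control lungs. Endothelial markers were at 43.9 and 35.3 CPM in SLC+LPS, 41.5 and 13.3 CPM in LPS, and 119 and 119.8 CPM in control lungs, the last being 1.51% and 1.62% of their level in endothelial cells. Their part in the result was not tested.

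**Figure D2:**
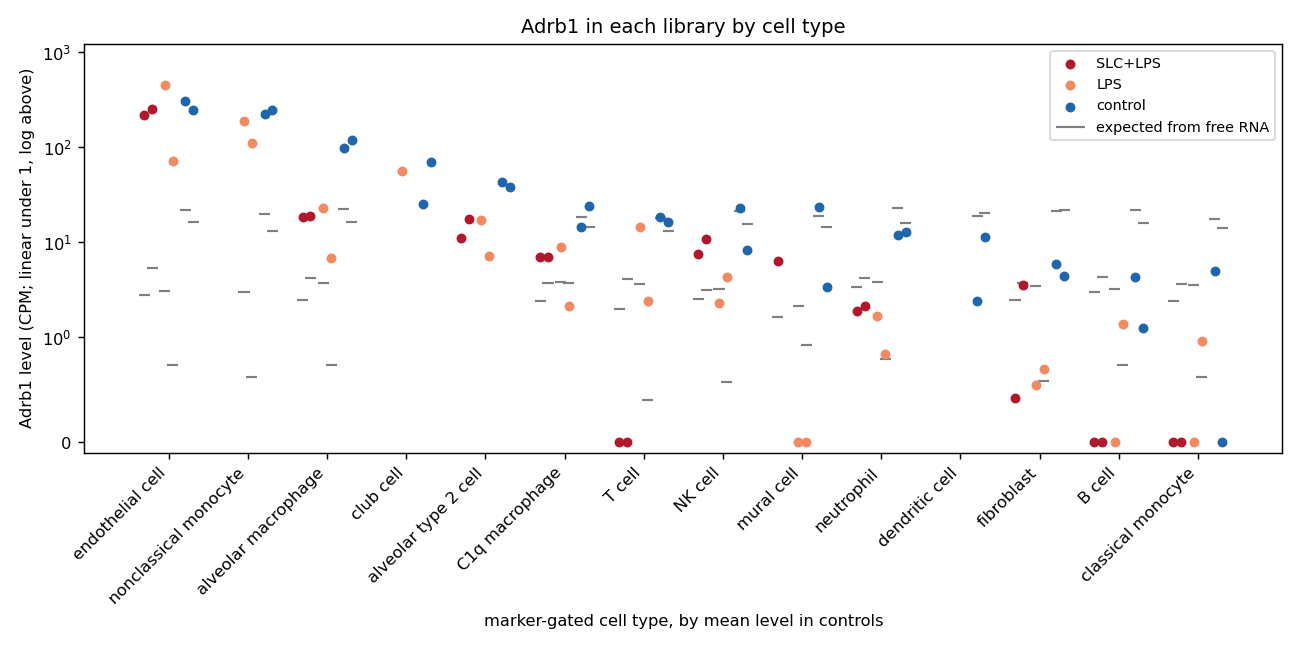
Adrb1 in CPM (vertical axis) for each library in each cell type, with SLC+LPS left, LPS in the middle and control right; grey dashes give the level expected from free RNA. Alveolar macrophages of the 4 LPS-treated libraries lie at 6.71 to 22.7 CPM, under the controls at 97.1 and 117 CPM, while endothelial values overlap.

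Endothelial cells gave no such difference. Adrb1 had 215 and 249 CPM in SLC+LPS, 443 and 70.7 CPM in LPS, and 304 and 241 CPM in control lungs. The LPS libraries were the highest and the lowest of the 6, and the groups overlapped. The log2 changes were -0.22 (SE 0.653, adjusted p = 0.987) for SLC+LPS against control and -0.06 (SE 0.637, adjusted p = 0.989) for LPS against control, with wide standard errors. LPS replicate 2 decides the second value: with it as the lone LPS library, assumed to vary like the others, the log2 change was -1.63 (adjusted p = 0.000256) for LPS against control and 1.37 (adjusted p = 0.00377) for SLC+LPS against LPS.

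The difference between alveolar macrophages and endothelial cells was tested directly, in 1 fit on the sums of both types with the library as a term. This test was added after the levels had been seen. Adrb1 fell further in alveolar macrophages than in endothelial cells by a log2 difference of -2.22 (SE 0.377, adjusted p = 0.00052, edgeR) in SLC+LPS and -2.50 (SE 0.365, adjusted p = 2.74e-05, edgeR) in LPS. The alveolar macrophage level was 8.38% and 7.39% of the endothelial level of the same library in SLC+LPS, 5.11% and 9.49% in LPS, and 32.0% and 48.4% in control lungs. Both controls were above all LPS-treated libraries. Of 11071 genes in this fit, 2.11% were called in SLC+LPS and 5.3% in LPS. Without SLC+LPS replicate 1 the adjusted p in SLC+LPS was 0.08, and with free RNA subtracted the adjusted p was 0.293 in SLC+LPS and 0.137 in LPS, at log2 differences of -2.26 and -2.54.

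Within the endothelial cells, Adrb1 differed between clusters. One cluster, led by Ptprb, Tspan7, Clec14a and Plvap, held 186 and 270.2 CPM in SLC+LPS, 382 and 65.9 CPM in LPS, and 316 and 207 CPM in control lungs. A second cluster, led by Kdr, Emp2 and Ednrb, held 286 and 169 CPM in SLC+LPS, 523 and 71.3 CPM in LPS, and 278 and 320 CPM in control lungs. The last cluster, led by the lymphatic genes Mmrn1 and Ccl21a, held 13.3 and 6.77 CPM in control lungs. The clusters were formed on all variable genes, so these levels are a description.

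In the sums over all cells, Adrb1 stood at 8.84 and 7.96 CPM in SLC+LPS, 7.67 and 13.6 CPM in LPS, and 49.5 and 41.9 CPM in control lungs. The log2 change was -2.07 (SE 0.319, adjusted p = 0.0228) for SLC+LPS and -1.73 (SE 0.315, adjusted p = 0.0313) for LPS against control. Of all genes, 7.32% were called lower in SLC+LPS and 3.95% in LPS. Without control replicate 1 or 2 the adjusted p was 0.153 and 0.151 for SLC+LPS and 0.202 and 0.203 for LPS, and without SLC+LPS replicate 1 or 2 it was 0.0886 and 0.13 for SLC+LPS and 0.0616 and 0.0587 for LPS. In such sums fewer cells of a type and less RNA per cell cannot be told apart: endothelial cells were 1.96% and 0.58% of cells in SLC+LPS, 1.09% and 5.96% in LPS, and 9.43% and 4.98% in control lungs.

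Neutrophil sums also gave lower Adrb1, at 1.87 and 2.11 CPM in SLC+LPS, 1.64 and 0.834 CPM in LPS, and 11.7 and 12.6 CPM in control lungs. The log2 change was -2.75 (SE 0.512, adjusted p = 0.0316) for SLC+LPS and -3.21 (SE 0.525, adjusted p = 0.0161) for LPS. Of all neutrophil genes, 1.29% were called lower in SLC+LPS and 1.62% in LPS. Without control replicate 1 or 2 the adjusted p was 0.238 and 0.21 for SLC+LPS and 0.138 and 0.136 for LPS, and without SLC+LPS replicate 1 or 2 it was 0.181 and 0.192 for SLC+LPS. The free RNA itself held 10.7 and 8.86 CPM of Adrb1 in SLC+LPS, 12.7 and 11 CPM in LPS, and 62.4 and 38.6 CPM in control lungs. Neutrophil Adrb1 was under the expected free level in 5 of the 6 libraries and close to it in LPS replicate 2 (0.834 against 0.789 CPM), so it is read as background and not as a level of neutrophils.

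Over all units, 88 of the 99 member-by-unit combinations passed the low-count filter. Adrb1 did not pass in classical monocytes, T cells, NK cells, B cells and alveolar type 2 cells, Arrb1 in classical monocytes, NK cells and alveolar type 2 cells, Prkaca in classical monocytes and alveolar type 2 cells, and Arrb2 in alveolar type 2 cells. Against control, 3 member tests were called in SLC+LPS, beside 3.24% of all gene-by-unit tests, and 3 in LPS, beside 2.48% of all. All 6 of these calls are the Adrb1 values above, and no excess of members is read from their number. For SLC+LPS against LPS, 0 members were called by edgeR and 0 by DESeq2; 5 of the 88, or 5.68%, had an unadjusted p under 0.05, beside 4.37% of all gene-by-unit tests, and 1 of 100658 gene-by-unit tests was called, which is 0.000993%. Leaving out LPS replicate 1, so that LPS replicate 2 was the lone LPS library, raised the member counts for SLC+LPS against LPS and for LPS against control. Counts over all genes also moved widely when 1 library was left out, so no excess of members is read from this. The members' groups did not overlap in 18 of 88 tests for SLC+LPS against LPS, 51 for SLC+LPS against control and 41 for LPS against control. These are 20.5%, 58% and 46.6% of the member tests, beside 28.5%, 56.6% and 47.7% of all gene-by-unit tests, so no excess of members is read from them.

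**Figure D3:**
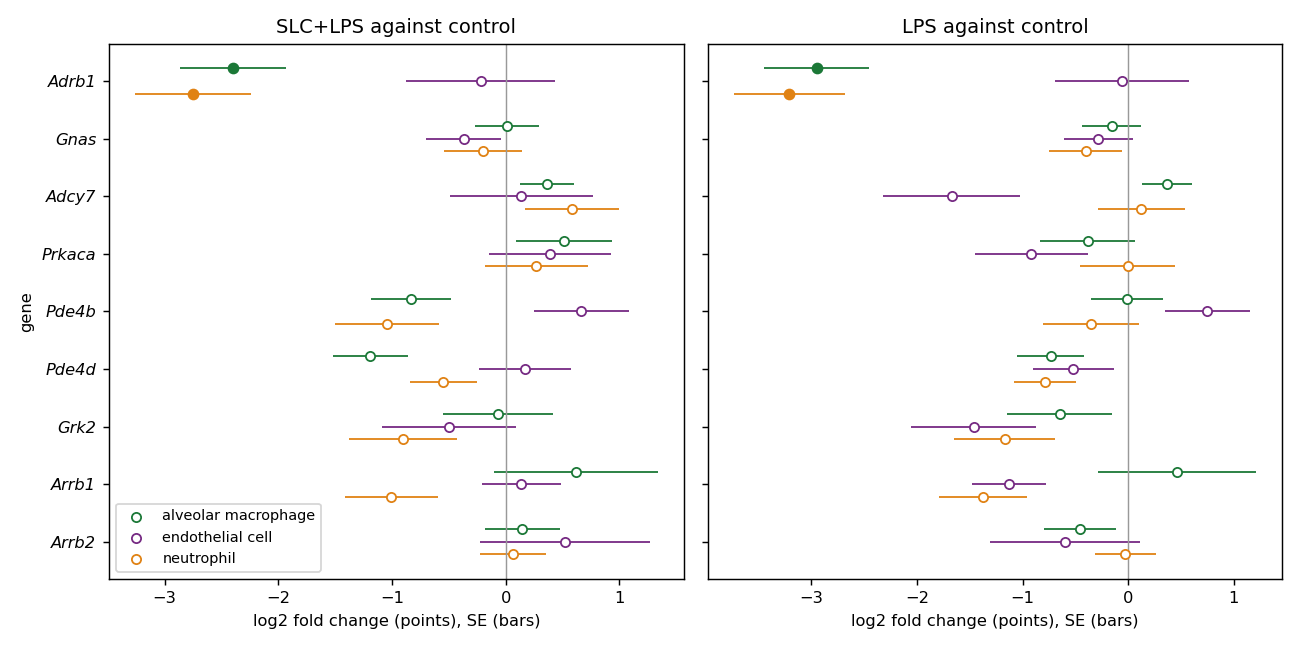
Log2 change with its standard error (horizontal axis) of the members (rows) in alveolar macrophages, endothelial cells and neutrophils, for SLC+LPS against control on the left and LPS against control on the right; filled points have an adjusted p under 0.05. The filled points are Adrb1 in alveolar macrophages and neutrophils, between -2.40 and -3.21.

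Gnas encodes the stimulatory G protein α subunit, which couples β receptors to adenylyl cyclase. In control lungs it was highest in mural cells at 2311 ± 213 CPM and fibroblasts at 2255 ± 50.5 CPM, which did not differ beyond their spread. Neutrophils were lowest at 383 ± 5.78 CPM. Between them lay NK cells at 1734 ± 32.5 CPM and endothelial cells at 1597 ± 46.8 CPM. The sources used here do not say whether counting used strand, so reads of the antisense transcript of this locus cannot be told apart from its own.

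No Gnas change was called in any unit. Over all cells Gnas held 822 and 629 CPM in SLC+LPS, 747 and 564 CPM in LPS, and 1353 and 1442 CPM in control lungs. The controls were higher without overlap, with a log2 change of -0.58 (adjusted p = 0.155) in SLC+LPS and -0.71 (adjusted p = 0.117) in LPS by edgeR. Within neutrophils, the type with the least Gnas and a larger share of cells in the LPS-treated libraries, it held 390.2 and 351 CPM in SLC+LPS, 378 and 183 CPM in LPS, and 387 and 379 CPM in control lungs.

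Adcy7 is one of the membrane adenylyl cyclases that make cyclic AMP, known from immune cells. Its control level was highest in nonclassical monocytes at 236 ± 29.1 CPM, then C1q macrophages at 168 ± 2.22 CPM, T cells at 148 ± 9.06 CPM and B cells at 142 ± 9.22 CPM, the last pair overlapping in range. Endothelial cells were near the low end at 21.3 ± 13.2 CPM. Nonclassical monocytes thus ranked high for Adcy7 and for Adrb1.

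In neutrophils Adcy7 held 46.4 and 46.4 CPM in SLC+LPS, 45.9 and 14.5 CPM in LPS, and 28.1 and 27.8 CPM in control lungs. Of the 4 LPS-treated libraries, 3 were near 46 CPM and LPS replicate 2 was under both controls. The level expected from free RNA was 30.3 and 36.4 CPM in SLC+LPS, 30.1 and 6.69 CPM in LPS, and 34.8 and 35.9 CPM in control lungs, so the control values lie under it and are read as background. The log2 change in SLC+LPS against control was 0.58 (SE 0.412, adjusted p = 0.43, edgeR). In endothelial cells Adcy7 held 20.7 and 24.1 CPM in SLC+LPS, 7.2 and 4.82 CPM in LPS, and 11.9 and 30.7 CPM in control lungs. The LPS libraries were the lowest, with a log2 change of 1.81 (unadjusted p = 0.0402, adjusted p = 0.63, edgeR) for SLC+LPS against LPS, which was not called. All 6 endothelial values were under the level expected from free RNA, which was 24.6 and 47.3 CPM in SLC+LPS, 24.1 and 6.21 CPM in LPS, and 32.7 and 37.4 CPM in control lungs, so they are read as background.

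Prkaca, the catalytic subunit that phosphorylates CREB and other targets, was sparse in every cell type. Its control mean ran from 5.35 ± 5.89 CPM in dendritic cells to 43.3 ± 14.6 CPM in alveolar type 2 cells, and most neighbours in this order overlapped. In alveolar macrophages it held 22.1 and 25.4 CPM in SLC+LPS, 20.1 and 7.81 CPM in LPS, and 17.8 and 18.9 CPM in control lungs. No change was called.

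Pde4b, the phosphodiesterase that is induced by LPS in mouse monocytes and macrophages, had its highest control level in neutrophils at 1151 ± 3.39 CPM. Dendritic cells followed at 709 ± 48.2 CPM, and nonclassical and classical monocytes at 493 ± 53.6 and 477 ± 0.326 CPM did not differ beyond their spread. Alveolar type 2 and club cells were lowest at 60.5 ± 27.6 and 26.4 ± 10.8 CPM. Pde4b was above the level expected from free RNA in both controls in 11 of 12 types.

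Neutrophil Pde4b held 417 and 802 CPM in SLC+LPS, 662 and 960.0 CPM in LPS, and 1153 and 1149 CPM in control lungs. The controls were above all 4 LPS-treated libraries, among which replicates of a group differed widely. The log2 change was -1.04 (SE 0.458, adjusted p = 0.215, edgeR) for SLC+LPS and -0.35 (SE 0.454, adjusted p = 0.714, edgeR) for LPS against control, and neither was called. In alveolar macrophages Pde4b held 134 and 143 CPM in SLC+LPS, 147 and 307 CPM in LPS, and 278 and 273 CPM in control lungs, so that the LPS libraries lay on either side of the controls. SLC+LPS replicate 2 and LPS replicate 1 were under the level expected from free RNA there, at 422 and 173 CPM. For SLC+LPS against LPS its log2 change there was -0.82 (SE 0.349, unadjusted p = 0.0453, adjusted p = 0.795, edgeR).

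Over all cells Pde4b ran the other way, at 251 and 510.2 CPM in SLC+LPS, 435 and 575 CPM in LPS, and 363 and 318 CPM in control lungs. The LPS libraries were above the controls, while neutrophils, its richest type, made up a larger share of their cells. The log2 change of 0.94 (adjusted p = 0.167, edgeR) for LPS against control was not called.

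Pde4d, a second cyclic AMP phosphodiesterase of the same family, was highest in T cells at 264 ± 2.27 CPM and alveolar type 2 cells at 249.6 ± 107 CPM in control lungs, which overlapped; by thinned shares the order of these types was the other way round. Free RNA was rich in Pde4d. T cells were the one type of 12 above the expected level in both controls, at 263 against 144 CPM and 266 against 169 CPM. Over all sums with an estimate, 13 of 65 were above it. The estimate is thus too high for this gene, and levels under it are not shown to be background. In T cells it held 147 and 172 CPM in SLC+LPS, 157 and 247 CPM in LPS, and 263 and 266 CPM in control lungs, with the controls highest and no call. Alveolar macrophage values of 33.0 and 22.6 CPM in SLC+LPS, 27.7 and 44.0 CPM in LPS, and 73.6 and 73.7 CPM in control lungs were under the expected free level in 5 of the 6 libraries. The log2 change there for SLC+LPS against control was -1.19 (SE 0.328, adjusted p = 0.0849, edgeR), which was not called.

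**Figure D4:**
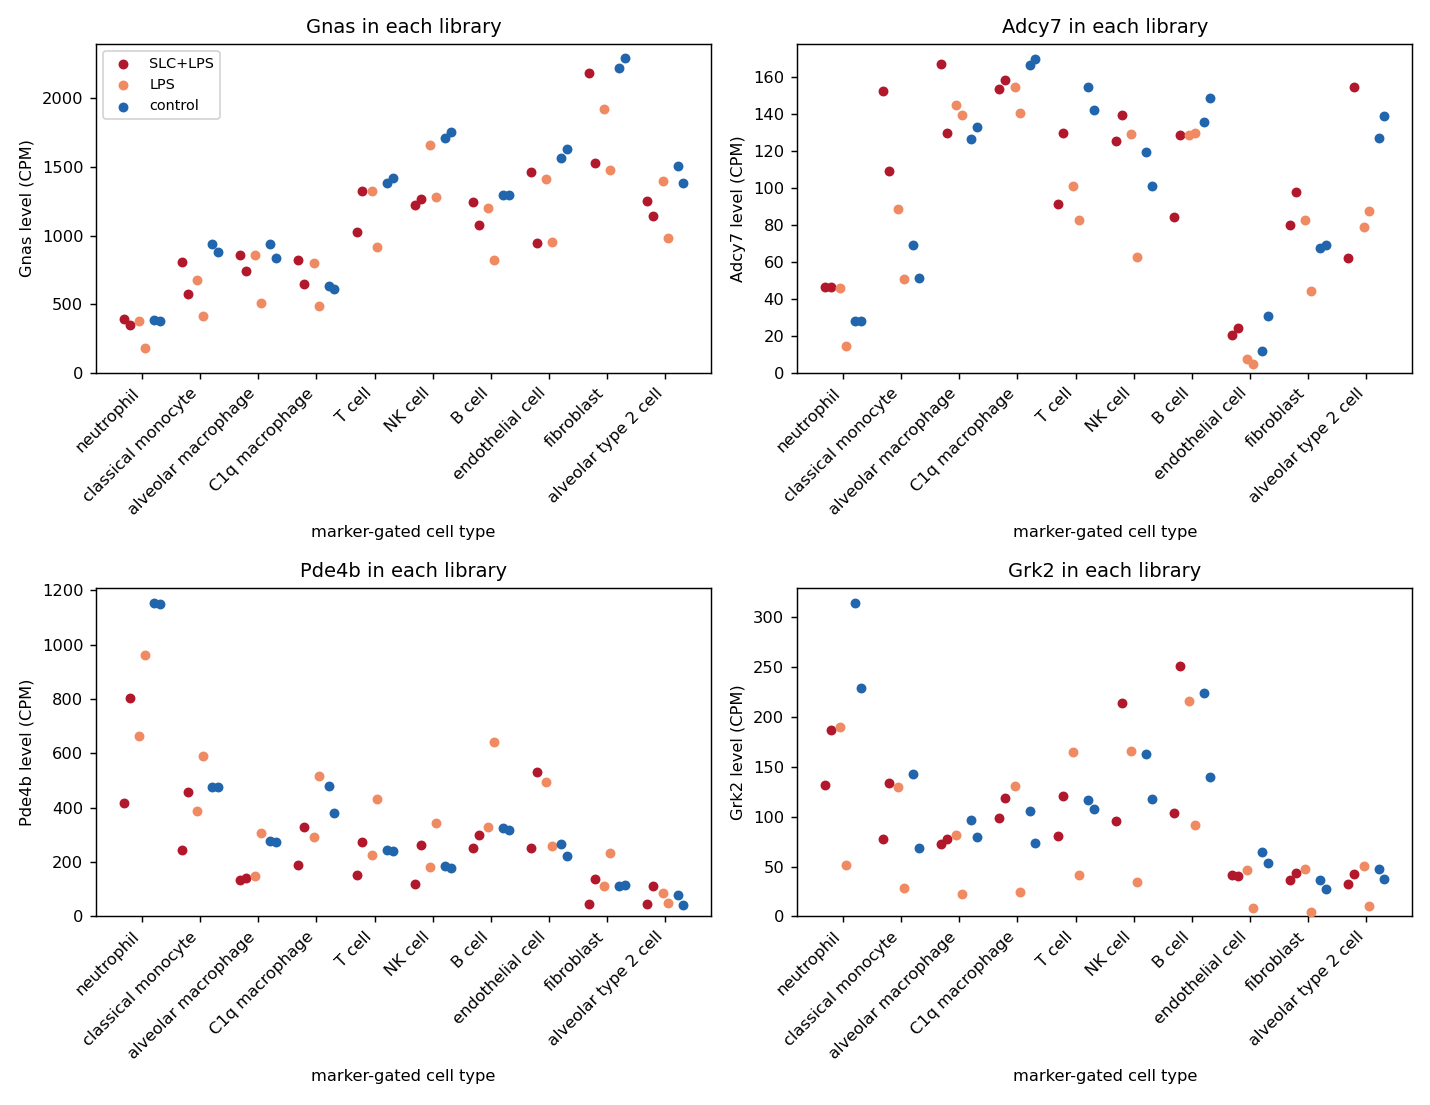
CPM (vertical axes) of Gnas, Adcy7, Pde4b and Grk2 in each library by cell type, with SLC+LPS left, LPS in the middle and control right. In control lungs neutrophils have the lowest Gnas and the highest Pde4b and Grk2, and LPS replicate 2 has the lowest Grk2 in all 10 tested types.

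Grk2, the kinase that phosphorylates agonist-bound receptors, had its highest control level in neutrophils at 271 ± 60.4 CPM. B cells at 182 ± 59.3 CPM overlapped nonclassical monocytes at 148 ± 31.3 CPM and NK cells at 139.9 ± 32 CPM. Endothelial cells held 58.9 ± 7.42 CPM and fibroblasts 32.3 ± 6.5 CPM. Neutrophils therefore held the most Grk2 and the most Pde4b, beside the least Gnas, of the 14 types in control lungs. In the LPS-treated groups neutrophil Grk2 was under that of B cells, at 159 against 177 CPM in SLC+LPS and 121 against 154 CPM in LPS on average.

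In neutrophils Grk2 held 132 and 187 CPM in SLC+LPS, 189.6 and 51.6 CPM in LPS, and 314 and 228 CPM in control lungs. Both controls were above all 4 other libraries, and the log2 change was -0.90 (SE 0.473, adjusted p = 0.289, edgeR) for SLC+LPS and -1.17 (SE 0.476, adjusted p = 0.193, edgeR) for LPS. LPS replicate 2 had the lowest Grk2 of the 6 libraries in all 10 tested types. With that library alone standing for LPS, Grk2 was called lower than in control lungs in 7 types, in alveolar macrophages by a log2 change of -1.66 (adjusted p = 0.00313). The same library was lowest for Gnas and Prkaca in 8 of 10 types, for Arrb2 and Adcy7 in 7, and highest for Pde4b in 7.

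Arrb1, β-arrestin 1, was highest in endothelial cells at 81.2 ± 1.84 CPM in control lungs, apart from C1q macrophages at 22.7 ± 1.95 CPM and fibroblasts at 22.4 ± 1.25 CPM, which did not differ beyond their spread. Endothelial cells thus led for the receptor and for this arrestin. Alveolar macrophages were lowest at 4.73 ± 2.79 CPM. Endothelial Arrb1 held 82.8 and 96.3 CPM in SLC+LPS, 46.8 and 25.7 CPM in LPS, and 82.5 and 79.9 CPM in control lungs.

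The LPS libraries were the lowest for endothelial Arrb1, with no overlap, and the SLC+LPS libraries stood at or just above the control level. The log2 change was 1.27 (SE 0.384, unadjusted p = 0.0081, adjusted p = 0.63) for SLC+LPS against LPS and -1.13 (SE 0.351, unadjusted p = 0.00921, adjusted p = 0.249) for LPS against control in edgeR. Neither passed the adjustment over the genes of endothelial cells; with LPS replicate 2 as the lone LPS library they were 1.44 (adjusted p = 0.0113) and -1.34 (adjusted p = 0.00528). Neutrophil Arrb1 held 13.6 and 7.67 CPM in SLC+LPS, 6.89 and 6.76 CPM in LPS, and 20.4 and 17.8 CPM in control lungs, with a log2 change of -1.37 (SE 0.415, adjusted p = 0.0956, edgeR) in LPS.

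Arrb2, β-arrestin 2, which acts beside Arrb1 at many receptors, was highest in dendritic cells at 68.1 ± 2.24 CPM, C1q macrophages at 61.8 ± 7.62 CPM and neutrophils at 56.1 ± 5.25 CPM, neighbours whose ranges overlapped. Endothelial cells, the highest type for Arrb1, held 11.5 ± 2.26 CPM. Over all cells Arrb2 held 49.6 and 52.1 CPM in SLC+LPS, 52 and 24 CPM in LPS, and 30.1 and 28.9 CPM in control lungs. The SLC+LPS libraries were above the controls and LPS replicate 2 was under them. The log2 change was 1.17 (SE 0.378, adjusted p = 0.0868) for SLC+LPS against control in edgeR, and DESeq2's adjusted p was 0.0294; within neutrophils it was 0.07 (adjusted p = 0.911, edgeR).

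For 1 other member the fitted change under LPS differed between alveolar macrophages and endothelial cells. Adcy7 held 167 and 130 CPM in SLC+LPS, 145 and 139.6 CPM in LPS, and 127 and 133 CPM in control alveolar macrophages, and the log2 difference between the types was 1.88 (SE 0.551, adjusted p = 0.0372, edgeR) for LPS. Endothelial Adcy7 was above the level expected from free RNA in 0 of 6 libraries, so the endothelial side of this difference is read as background. Between alveolar macrophages and neutrophils 0 members differed in their LPS change, where 1.04% of genes did; Adrb1 gave 0.49 (adjusted p = 0.728, edgeR), and Arrb1 had an unadjusted p of 0.02.

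The genes most like Adrb1 over the 74 sums of a cell type in a library, by Pearson's r of log2(CPM + 1) among 9504 genes, were Cd36 (r = 0.765), Jup (0.735), Afap1l1 (0.666), Pdgfb (0.661) and Slc9a3r2 (0.650). Those most like Pde4b were Vav3 (0.862), Srgn (0.859), Rap1b (0.838), Pip4k2a (0.830) and Riok3 (0.802). The sums share libraries, depth and cell type, so these are descriptions of the pattern and carry no p.

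The wider pathway was read from 10 lists with 74 genes, all found, which gave 505 gene-by-unit tests per comparison. Between SLC+LPS and LPS 0 were called. Against control, 2 were called higher and 14 lower in SLC+LPS, and 1 higher and 8 lower in LPS. These are 3.17% and 1.78% of the list tests, beside 3.24% and 2.48% of all gene-by-unit tests, so both shares are under the background, and the calls below are values of single genes. Each of these calls was lost in 2 to 5 of the 6 settings that left out 1 library. The G protein subunit list (Gnb1, a β subunit, and Gnai2, an inhibitory α subunit, being its most abundant genes) and the receptor kinase list (led by Grk5 and Grk3) had 0 calls.

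Noradrenaline is cleared by uptake and by monoamine oxidases. Slc6a2, the noradrenaline transporter, held 4.03 and 2.27 CPM over all cells in SLC+LPS, 1.44 and 1.24 CPM in LPS, and 29.5 and 16.5 CPM in control lungs, and fell by 2.50 (adjusted p = 0.0253) in SLC+LPS and by 3.72 (adjusted p = 0.0179) in LPS on the log2 scale in edgeR. It was highest in endothelial cells, where it held 156 and 201 CPM in SLC+LPS, 57.6 and 20.4 CPM in LPS, and 350.0 and 309 CPM in control lungs. The 3 groups did not overlap there, with SLC+LPS between LPS and control. No endothelial change of Slc6a2 was called. In edgeR the log2 change was 2.26 (unadjusted p = 0.000499, adjusted p = 0.63) for SLC+LPS against LPS and -3.15 (adjusted p = 0.0555) for LPS against control. For SLC+LPS against control it was -0.89 (adjusted p = 0.678, edgeR). Endothelial cells were 1.96% and 0.58% of cells in SLC+LPS, 1.09% and 5.96% in LPS, and 9.43% and 4.98% in control lungs. In the sums over all cells, fewer endothelial cells and less Slc6a2 per cell cannot be told apart.

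Maob, monoamine oxidase B, held 9.22 and 6.51 CPM over all cells in SLC+LPS, 7.75 and 9.86 CPM in LPS, and 33.8 and 40.1 CPM in control lungs. Both controls were above all LPS-treated libraries. Its log2 change was -1.87 (adjusted p = 0.0213) in SLC+LPS and -1.70 (adjusted p = 0.0252) in LPS. In alveolar type 2 cells, its richest type, it held 69.4 and 51.6 CPM in SLC+LPS, 95.9 and 144 CPM in LPS, and 160.1 and 136 CPM in control lungs. No change was called there. Fibroblasts held more of its control UMIs, 1570 of 2186, against 77 in alveolar type 2 cells. Its log2 change in fibroblasts was -0.41 (adjusted p = 0.536, edgeR) in SLC+LPS and -0.19 (adjusted p = 0.98, edgeR) in LPS. Fibroblasts were 3.65% and 2.02% of cells in SLC+LPS, 2.37% and 6.29% in LPS, and 16.9% and 22.2% in control lungs. In the sums over all cells, fewer fibroblasts and less Maob per cell cannot be told apart. Maoa, its sister enzyme, was called lower in C1q macrophages of SLC+LPS, at 25.5 ± 5.6 CPM against 69.4 ± 1.36 CPM in control lungs (SD, n = 2 each). Its log2 change was -1.38 (adjusted p = 0.0444, edgeR). LPS held 29 ± 2.42 CPM there, with a log2 change of -1.22 (adjusted p = 0.0815, edgeR) against control, which was not called. For SLC+LPS against LPS it was -0.16 (adjusted p = 0.942, edgeR). Th and Dbh, the enzymes by which sympathetic neurons make noradrenaline, were at or near 0 in these lung cells.

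In alveolar macrophages the lists gave 2 genes with sizeable counts besides. Fosb, an immediate early gene that CREB can drive, held 92.9 and 97.5 CPM in SLC+LPS, 121 and 50.3 CPM in LPS, and 372 and 341 CPM in control lungs. Its log2 change was -1.74 (adjusted p = 0.0445, edgeR) in SLC+LPS and -1.88 (adjusted p = 0.0326, edgeR) in LPS. Both controls were above all LPS-treated libraries, while SLC+LPS and LPS overlapped. SLC+LPS replicate 2 was under the level expected from free RNA, 110.3 CPM, and the other 5 libraries were above theirs. Akap13, an anchor of protein kinase A, held 157 and 157 CPM in SLC+LPS, 154 and 274 CPM in LPS, and 471 and 507 CPM in control lungs. It was called for SLC+LPS, with a log2 change of -1.48 (adjusted p = 0.0435). Akap13 was under the level expected from free RNA in SLC+LPS replicate 2 (529 CPM), LPS replicate 1 (256 CPM) and control replicate 2 (567 CPM).

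In neutrophils Creb5, a factor of the CREB and ATF family, was the one gene of the lists called higher, at 238 and 179 CPM in SLC+LPS, 220.3 and 119 CPM in LPS, and 31.5 and 36.2 CPM in control lungs. Its log2 change was 2.47 (SE 0.346, adjusted p = 0.0123, edgeR) in SLC+LPS and 2.39 (SE 0.345, adjusted p = 0.00948, edgeR) in LPS. All LPS-treated libraries were above both controls. The level expected from free RNA was 149 and 273 CPM in SLC+LPS, 153 and 19.3 CPM in LPS, and 81.6 and 96.1 CPM in control lungs, so that both controls and SLC+LPS replicate 2 were under it. Over all cells Creb5 was also called higher in SLC+LPS, at 161 ± 4 CPM against 88.3 CPM on average in control lungs (log2 change 1.24, adjusted p = 0.0384). Akap12, another anchor of protein kinase A that also binds β receptors, held 11.3 and 8.79 CPM in SLC+LPS, 7.36 and 10.4 CPM in LPS, and 34.8 and 54.0 CPM in control neutrophils. It fell by 2.29 (adjusted p = 0.0316) in SLC+LPS and by 2.16 (adjusted p = 0.0274) in LPS on the log2 scale. These values were under the level expected from free RNA in all 6 libraries, which was 30 and 28.4 CPM in SLC+LPS, 22.1 and 16.8 CPM in LPS, and 95.7 and 112 CPM in control lungs, so they are read as background. Akap12 was richest in fibroblasts, at 868 ± 89.4 CPM in control lungs, and was also called lower under LPS in alveolar macrophages and C1q macrophages, where it was likewise under the free RNA level in all 6 libraries.

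**Figure D5:**
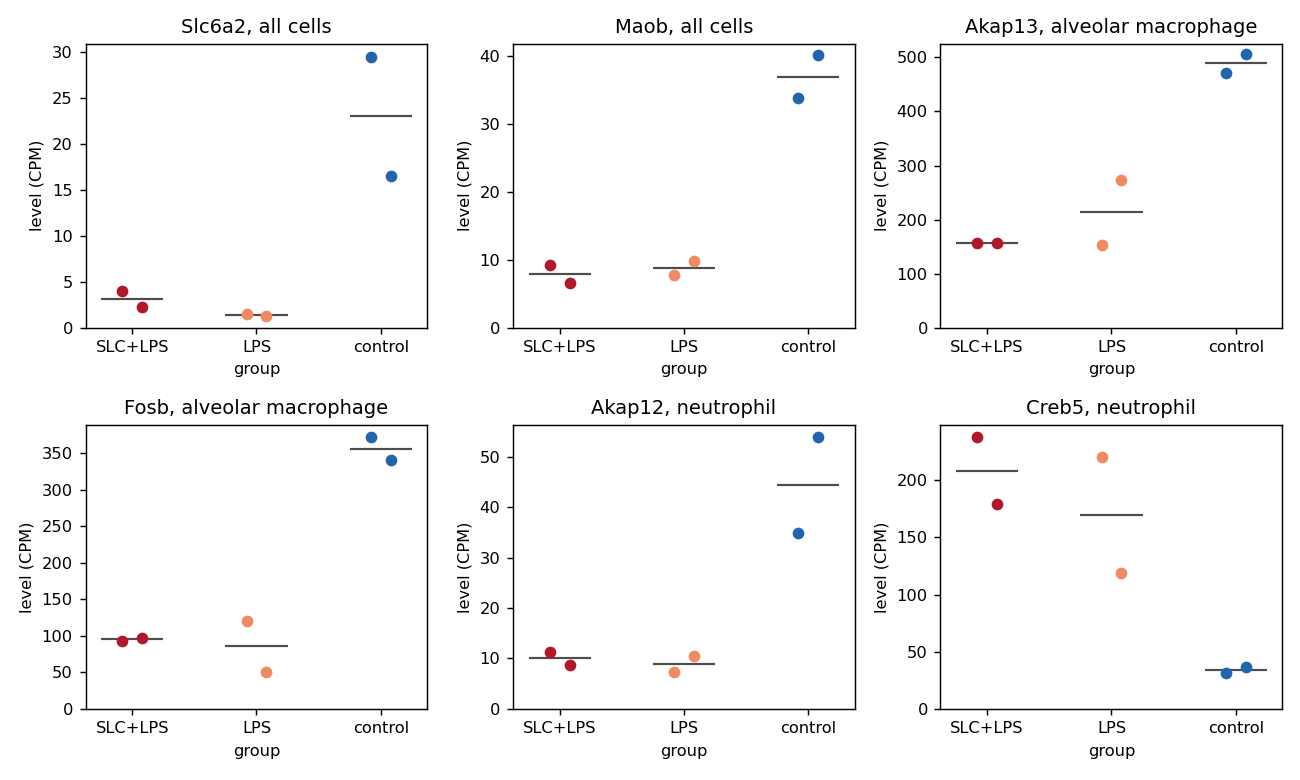
CPM per library (points, vertical axes) with the group mean (line) of Slc6a2 and Maob over all cells, Akap13 and Fosb in alveolar macrophages, and Akap12 and Creb5 in neutrophils, in the order SLC+LPS, LPS, control. Creb5 is higher in the 4 LPS-treated libraries, at 119 to 238 CPM, than in the controls at 31.5 and 36.2 CPM; the other genes are higher in the controls.

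The remaining calls were all lower in sums over all cells unless named. In such sums fewer cells of a type and less RNA per cell cannot be told apart. In SLC+LPS the phosphodiesterases Pde4a, Pde7a and Pde4c fell, Pde7a to 19.1 ± 4.64 CPM, against 58.5 ± 0.0137 CPM in control lungs (SD, n = 2 each; log2 change -1.23, adjusted p = 0.0424). Pde7a was richest in B cells, at 265 ± 33.3 CPM in control lungs. B cells were 0.626% and 1.08% of cells in SLC+LPS, and 8.34% and 5.9% in control lungs. Pde4a held 3.6 ± 0.26 CPM in SLC+LPS, 3.93 ± 0.562 CPM in LPS, where it was not called, and 10.5 ± 0.561 CPM in control lungs. Pde4c in alveolar macrophages rested on 1 UMI in SLC+LPS and 52 UMIs in control lungs. Pkia, an inhibitor of protein kinase A, and Rapgef3, a cyclic AMP sensor also called Epac1, fell in both LPS-treated groups, with adjusted p between 0.0279 and 0.0438. Adra1b, an α1 receptor, fell in SLC+LPS at 0.393 ± 0.0232 CPM, against 2.88 ± 0.661 CPM in control lungs. Adcy5 in neutrophils, called for SLC+LPS, rested on 4 UMIs against 16 in control lungs, under the level expected from free RNA in all 6 libraries.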

How the data were processed

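Single lung cells of 6 mice, 2 per group, were captured by BD Rhapsody and sequenced as 150 bp paired reads, per the labels' protocols. The deposited matrices hold UMI counts per gene and barcode; the builds GRCm39 and mm39 are named in the submitters' processing notes, and the aligner and counter are not named in what was used here. Totals were 31589233 to 48641470 UMIs per library.

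A barcode counted as a cell from 500 UMIs and 300 genes upwards, unless over 20% of its UMIs were mitochondrial. Scrublet (scanpy 1.11.5) marked 0% to 2.14% of them as doublets, which were removed. It did not work in both SLC+LPS libraries and LPS replicate 1, where it marked under 0.5%. Doublets may remain in those libraries, so their removal was uneven between the groups. A cell took a type with at least 2 of its markers detected and 2 more than any other type. Free RNA was estimated from barcodes of 10 to 100 UMIs, scaled by Sftpc, Scgb1a1 and Scgb3a2.

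UMI counts were summed per type and library and tested with edgeR 4.0.16 (quasi-likelihood, TMM, filterByExpr, all 3 groups in 1 fit, no block), in types with at least 20 cells in every library. P-values were adjusted by Benjamini-Hochberg over all genes of a unit, and a call is an adjusted p under 0.05. On simulated counts, 98.1% to 100% of changed genes were recovered and 0.0618% to 0.0852% of unchanged genes were called. That simulation gave all genes the same dispersion, 0.05. It changed genes by a log2 of 2 or 3, and only those expected above 20 counts in every sum. These shares therefore do not give the power of the tests on the real counts. The p-values rest on a spread between mice that was pooled over the 3 groups, 2 mice each, and drawn towards that of other genes.

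Named genes were all members; of each list its called genes, at most 4 by p, or else its 2 most abundant; and the 5 genes most like Adrb1 and Pde4b. Levels of Slc6a2 and Maob in their richest types, and the values of Maob in fibroblasts, were added after values were seen. Members, lists and tests were chosen with earlier results of these data known. Alternatives were RLE scaling, DESeq2 1.42.0, no low-count filter, a stricter cell filter, a looser marker margin, marker-named clusters, the top 6% of doublet scores left out, free RNA subtracted, a replicate block and each library left out. Protein sequences were not used here.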

Additional observations from a re-analysis of the deposited data

Results flagged for a closer look

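The following results were singled out because the same treatment moved a gene differently in different cell types.

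Adrb1 fell further in alveolar macrophages than in endothelial cells, by a log2 difference of -2.22 (adjusted p = 0.00052, edgeR) in SLC+LPS and -2.50 (adjusted p = 2.74e-05, edgeR) in LPS against control. All 4 LPS-treated libraries had a lower alveolar macrophage level relative to the endothelial level than both controls. Free RNA, depth and the monocyte markers in the alveolar macrophage sums differ between these groups, and their part in the difference was not tested beyond the subtraction given in the report.

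Adcy7 under LPS had a log2 change of 0.37 in alveolar macrophages and -1.67 in endothelial cells. Every library moved in those directions, and the changes were 2.04 apart when fitted separately. The direct test gave 1.88 (adjusted p = 0.0372, edgeR). Endothelial Adcy7 was above the level expected from free RNA in 0 of 6 libraries, so its endothelial values are read as background.

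For 4 further pairs of cell types every treated library moved one way in the first and the other way in the second, without overlap with the controls. The differences were not tested. Over all genes, 56.6% of gene-by-unit tests for SLC+LPS against control and 47.7% for LPS against control had no overlap. No excess of members is therefore read from these pairs. In SLC+LPS, Arrb1 gave 1.46 in B cells and -1.12 in C1q macrophages, 2.58 apart, with 3 UMIs in each SLC+LPS library of B cells. Adcy7 in SLC+LPS gave 1.14 in classical monocytes and -0.39 in T cells, 1.52 apart. Gnas in SLC+LPS gave 0.28 in C1q macrophages and -0.42 in NK cells, 0.70 apart. In LPS, Pde4b gave 0.58 in B cells and -0.35 in neutrophils, 0.93 apart.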

How the results depend on the processing

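Counts of calls depended on the settings more than the direction of Adrb1 did. In alveolar macrophages and all cells Adrb1 was lower in both LPS-treated groups under every setting run. In neutrophils this held except with free RNA subtracted. There both controls were under the expected level, so no control counts were left to compare. RLE scaling, the stricter cell filter (which left B cells and alveolar type 2 cells untested), the looser marker margin and leaving out the top 6% of doublet scores kept every count within 1.5 times its value. For SLC+LPS against LPS, where 1 gene-by-unit test was called, DESeq2 called 37, no low-count filter 663, marker-named clusters 3 and free RNA subtraction 0. For SLC+LPS against control, with 3257 calls, DESeq2 called 6442 and no filter 9283; the 3 member calls became 5 with no filter, 5 with marker-named clusters and 1 with free RNA subtracted. For LPS against control, with 2501 calls, the counts were 5261 with DESeq2, 8707 with no filter, 3889 with marker-named clusters and 1464 with free RNA subtracted; the 3 member calls became 5, 6 and 1 with no filter, clusters and subtraction. In both comparisons that 1 call is Adrb1 in all cells, where nothing was subtracted; in the cell types with subtraction 0 member calls were left. The 128 genes whose LPS change differed between alveolar macrophages and neutrophils became 195 with DESeq2, 333 with no filter and 288 with free RNA subtracted. Adcy7 in classical monocytes, SLC+LPS against control, turned to -0.94 (adjusted p = 0.087, edgeR) with marker-named clusters. In that setting Pde4d was called lower in classical monocytes, at -3.18 (adjusted p = 0.000589, edgeR) in SLC+LPS and -3.45 (adjusted p = 0.000457, edgeR) in LPS. Adcy7 was called lower there in LPS, at -1.17 (adjusted p = 0.0431, edgeR). Of the cells assigned to that type by markers, 45.1% lay in clusters of that name, and the cause of these differences was not tested.

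Leaving out 1 library moved the counts most. Member calls ranged from 0 to 16 for SLC+LPS against LPS, 0 to 6 for SLC+LPS against control and 0 to 15 for LPS against control. Calls over all genes ranged from 1 to 5231, 32 to 11417 and 53 to 9571 for the same comparisons, and the difference between cell types from 73 to 1274. The highest counts came without LPS replicate 1 or 2. The lowest came without control replicate 1 or 2, and SLC+LPS against control also dropped to 381 and 130 genes without SLC+LPS replicate 1 and 2. A lone library is then assumed to vary like the other groups.

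Replicate numbers are shared between groups, and the labels do not say that they mark a batch. Deviations of same-numbered libraries over all cells correlated at -0.209 for SLC+LPS and LPS, -0.171 for SLC+LPS and control and 0.077 for LPS and control, so the numbers were not shown to pair the libraries. With the replicate block, 2 members were called in each comparison with control and 2, 1061 and 993 genes for SLC+LPS against LPS, SLC+LPS against control and LPS against control; Adrb1 lost its call in alveolar macrophages of SLC+LPS and in all cells of LPS. With the SLC+LPS numbers crossed, added after seeing the data, 7 genes were called for SLC+LPS against LPS, and 4 and 3 members against control.

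Depth limits the sparse members: Prkaca, Arrb1 and Adcy7 rest on few UMIs in the smaller types, and with 2 mice per group an effect that misses the threshold is not shown to be absent.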
